A study of Mus musculus with 12 samples.

Results

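Long-term hematopoietic stem cells (LT-HSCs), from which all other blood cells arise, were sorted from bone marrow from mice with chronic myelogenous leukemia (CML) by the amount of the c-KIT receptor on their surface, and RNA-Seq was used to ask which genes differ between those with low and those with high c-KIT. The comparison used 6 of the 12 libraries of the series, 3 of CML c-KIT-low and 3 of CML c-KIT-high LT-HSCs, and every gene that passed a filter on low counts. All 6 libraries came from the Scl-tTA-BCR-ABL model, in which Scl (*Tal1*) regulatory sequence drives a tetracycline-controlled activator in blood stem and progenitor cells and BCR-ABL is expressed once doxycycline is left out. CD45.2 marrow of these mice had been moved into lethally irradiated CD45.1 wild-type recipients to bring on disease at similar times, so both groups carry the transgenes, the transplantation and the disease. LT-HSCs were donor cells without lineage markers that were positive for Sca-1, c-KIT and CD150 and negative for Flt3 and CD48. The c-KIT-high and c-KIT-low gates held the top 30% and the bottom 30% of c-KIT on LT-HSCs of control mice and were then applied to CML cells, which the labels call leukemic stem cells. Mice of both sexes were used at 6 to 12 weeks of age. The other 6 libraries, 3 of normal c-KIT-low and 3 of normal c-KIT-high LT-HSCs, came from control mice kept on doxycycline, which the labels call B6, and are used only to set the CML change beside the normal one. The methods give 4 biological replicates per group, of which 3 libraries were analysed here, and nothing else says that the libraries came from separate mice, so p-values measure the spread between these libraries. These are bulk samples, in which fewer cells of a type and less RNA per cell cannot be told apart.

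c-KIT is the receptor for stem cell factor, and it signals through PI3K, RAS and SRC family kinases. BCR-ABL is the fused, always active tyrosine kinase of CML, which signals through adaptors such as CRKL, through RAS and PI3K, and through STAT5. Most LT-HSCs of normal marrow are quiescent, and cytokine receptors and TGF-β are known to hold them in that state.

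Gene counts ranged from 9730576 to 13213021 in CML c-KIT-high and from 17653931 to 20749935 in CML c-KIT-low libraries. Of all entries that the counting made, 26.7% to 37.1% lay on genes in c-KIT-high and 55.8% to 57.3% in c-KIT-low libraries, and 58.9% to 66.9% against 38.0% to 39.4% stood for reads that matched several places. Genes with under 1 kb of exonic sequence held 7.04% to 12.8% of all gene counts in c-KIT-high libraries, against 1.87% to 2.91% in c-KIT-low libraries. None of these ranges overlapped, at an exact two-sided permutation p = 0.1 each, the smallest that 3 against 3 can give. Across genes, log2 levels correlated at 0.919 to 0.951 among the c-KIT-low and at 0.784 to 0.836 among the c-KIT-high libraries, so the c-KIT-high libraries differed more from each other.

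Gene levels are in CPM (counts of the gene per 1000000 gene counts, TMM-scaled) and follow the order of libraries 1, 2 and 3. A gene passed the test at an adjusted p under 0.05 from edgeR's quasi-likelihood test on the 6 libraries with Benjamini-Hochberg adjustment over all genes tested. Of 13321 genes tested, 4807 (36.1%) passed, of which 2320 (17.4% of those tested) rose and 2487 (18.7%) fell in CML c-KIT-low LT-HSCs, with a median change among those called of 3.86-fold up and 4.97-fold down and a median log2 fold change of 0.05 over all genes tested. The groups did not overlap in 53.8% of genes, with 29.1% higher and 24.6% lower in c-KIT-low cells. Without c-KIT-low library 1, 2 or 3, the genes that rose numbered 1215, 1274 and 1212 and those that fell 1189, 1226 and 1227. With all 12 libraries in 1 fit, in which normal libraries also set the spread, 427 genes rose (2.91%) and 811 fell (5.53%), and 426 and 788 of these were called in the same direction by the 6-library fit.

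The change followed exonic length. Among the 391 genes with at most 0.5 kb of exonic sequence the median log2 fold change was -3.22 and 265 fell, while among the 2986 genes of 4 to 6 kb the median was 0.65. When the trend of each library on exonic length was taken out by offsets, there were 1403 genes that rose (10.5%) and 2178 that fell (16.4%), with 1244 and 1562 of the main calls in the same direction. The part of this trend in each result was not tested, so counts with the trend taken out are given with the gene groups below. That scaling moved the median of all genes by -0.14 on the log2 scale, and medians of ratios in place of TMM moved it by -0.12.

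**Figure D1:**
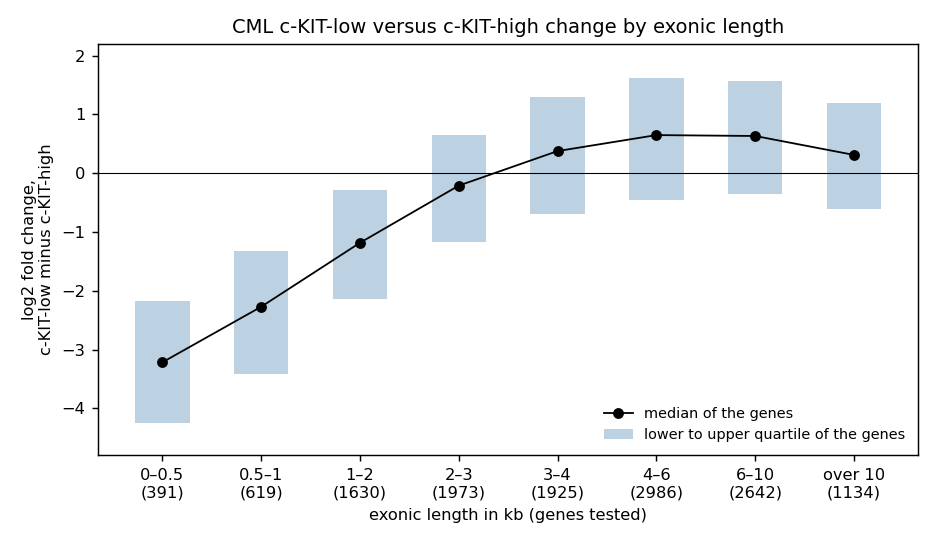
Log2 fold change of CML c-KIT-low minus CML c-KIT-high LT-HSCs (vertical axis) for genes binned by exonic length in kb (horizontal axis, number of genes tested in brackets), from the 6-library edgeR fit. Points are medians and bars run from the lower to the upper quartile of the genes; the median climbs from -3.22 in the shortest bin to 0.65 at 4 to 6 kb and is 0.31 above 10 kb.

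In these libraries the sorted receptor itself went the other way at the RNA level. The study's own qRT-PCR, in contrast, found *Kit* mRNA not significantly different between the fractions, in normal or in CML mice. *Kit* had 61.2, 112 and 233 CPM in c-KIT-high and 490.1, 512 and 587 CPM in c-KIT-low libraries. Every c-KIT-low library lay above every c-KIT-high library, and *Kit* rose 3.91-fold (log2 fold change 1.97, SE 0.47, adjusted p = 0.0142). *Kit* (ENSMUSG00000005672.12) lies on chromosome 5 from 75574916 to 75656722 of GRCm38, and its counts take in all of its transcripts. The other genes of the gate did not pass the test. *Ly6a*, which encodes Sca-1, had 217, 268 and 80.1 CPM in c-KIT-high and 116, 158 and 133 CPM in c-KIT-low libraries (adjusted p = 0.415), and the groups overlapped. Its log2 fold change of -0.47 turned to 1.05 with the length trend taken out (adjusted p = 0.0397). *Slamf1*, which encodes CD150, had 70, 59.7 and 29.8 CPM in c-KIT-high and 78.1, 58.2 and 54.5 CPM in c-KIT-low libraries (adjusted p = 0.616). *Cd48* (adjusted p = 0.822) and *Flt3* (adjusted p = 0.0977) were at 0 to 22.1 CPM and 14.6 to 54.8 CPM over the 6 libraries. Of the 21 genes that mark LT-HSCs or their gate, 10 rose and 2 fell, while 9 did not pass (47.6% and 9.52% of the list, against 17.4% and 18.7% of all genes tested). Their median log2 fold change was 0.96 against 0.05 over all genes tested (9, 2 and 0.89 with the length trend taken out). The summed level of the 21 genes was 2790 to 3664 CPM in c-KIT-high and 5628 to 6064 CPM in c-KIT-low libraries, and none of them was at 0 in all 6 libraries. *Itga2b*, which encodes the integrin CD41, rose 6.95-fold (log2 fold change 2.80, SE 0.32, adjusted p = 0.00187), from 241, 307 and 341 to 2154, 2153 and 1871 CPM. *Tek*, the angiopoietin receptor TIE2, rose 5.87-fold and *Eng*, the TGF-β co-receptor endoglin, rose 4.6-fold. The 2 that fell were *Thy1* (19.8-fold) and *Pdzk1ip1* (4.43-fold), a small membrane protein gene. Among *Kit*, *Thy1* and *Pdzk1ip1*, calls were lost when c-KIT-high library 2 or c-KIT-low library 1 or 3 was left out (adjusted p 0.0509 to 0.0608). Of the called genes named here only *Itga2b* passed in the 12-library fit. Leaving out 1 library moved the fold by over 1.5 times, to a log2 value of 2.60 for *Kit* and -3.45 for *Thy1* without c-KIT-high library 3, and to -4.93 for *Thy1* without c-KIT-low library 2.

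**Figure D2:**
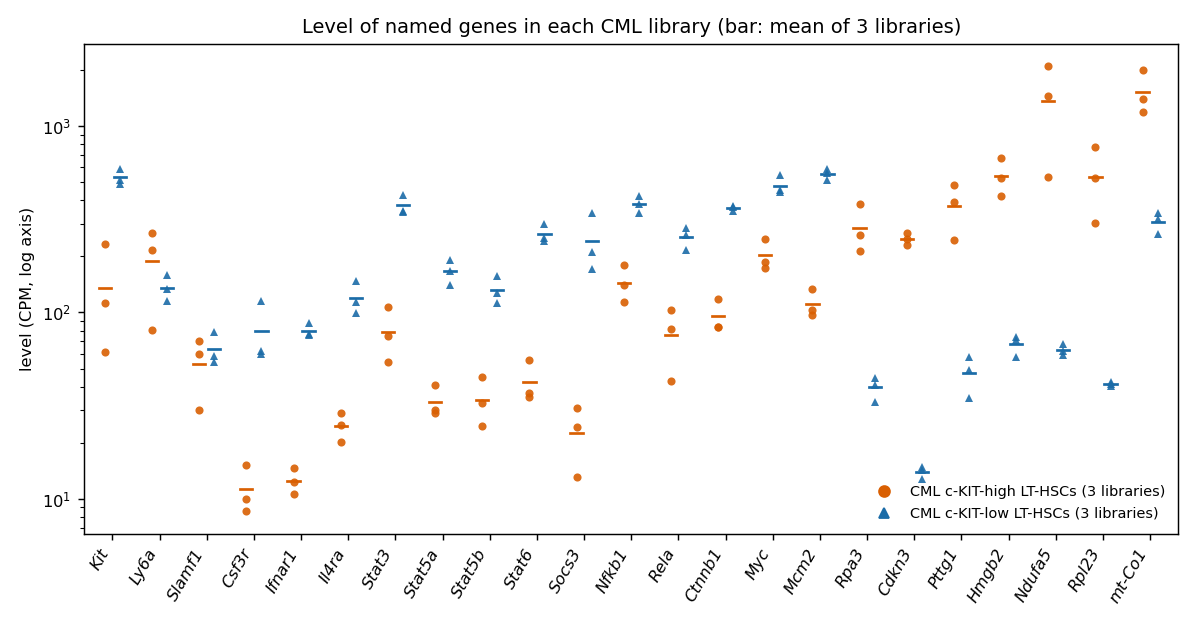
Level of 23 named genes in each of the 6 CML libraries (vertical axis, CPM on a log axis; circles, c-KIT-high; triangles, c-KIT-low; bars, means of 3 libraries). *Kit*, *Csf3r*, the STAT genes and *Socs3* sit higher in all c-KIT-low libraries, *Ly6a* and *Slamf1* overlap, and *Cdkn3*, *Ndufa5* and *mt-Co1* sit lower in all c-KIT-low libraries.

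All 17 cytokine receptor chains that passed the test were higher in CML c-KIT-low LT-HSCs, among them that for G-CSF. *Csf3r*, the G-CSF receptor, had 9.95, 8.56 and 15.3 CPM in c-KIT-high and 61.9, 59.9 and 116 CPM in c-KIT-low libraries. It rose 7.04-fold (log2 fold change 2.81, SE 0.41, adjusted p = 0.00237), and the groups did not overlap. *Ifnar1*, a chain of the type I interferon receptor, had 10.6, 12.4 and 14.6 CPM in c-KIT-high and 76.4, 75.5 and 87.6 CPM in c-KIT-low libraries and rose 6.39-fold (log2 fold change 2.67, SE 0.30, adjusted p = 0.00187). Its partner chain *Ifnar2* had 101, 124 and 116 CPM in c-KIT-high and 95.7, 79.2 and 75.3 CPM in c-KIT-low libraries and was not called, although its c-KIT-low values lay just below its c-KIT-high values (log2 fold change -0.45, adjusted p = 0.178). *Il10ra* rose 7.25-fold, from 4.52, 5.35 and 3.87 to 33.4, 42.9 and 23.5 CPM (adjusted p = 0.00292). The second IL-10 receptor chain, *Il10rb*, had 35.1, 23.4 and 19 CPM in c-KIT-high and 35.2, 33.2 and 32.1 CPM in c-KIT-low libraries and did not pass (adjusted p = 0.453). *Il4ra*, the IL-4 receptor chain, rose 4.89-fold, and the TNF receptor genes *Tnfrsf1b* and *Tnfrsf21*, the latter encoding DR6, rose 4.79-fold and 4.42-fold. The ligand *Csf1*, which encodes M-CSF, had 0.181, 0.357 and 1.17 CPM in c-KIT-high and 13.4, 8.03 and 26.7 CPM in c-KIT-low libraries and rose 28.2-fold (log2 fold change 4.82, SE 0.93, adjusted p = 0.00629). Of 37 receptor chains tested, 17 rose, 0 fell and 20 did not pass, at a median log2 fold change of 1.46, while 17.4% of all genes tested rose. With the length trend taken out, 14 rose and 2 fell (median 0.93). The list was written with the study's receptors in view, so its direction is not independent of them. Of the called genes named here only *Csf3r*, *Il4ra* and *Tnfrsf21* passed in the 12-library fit. With 1 library left out, the fold moved by over 1.5 times, to a log2 value of 5.89 for *Csf1* without c-KIT-high library 3.

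Downstream of these receptors, JAK kinases phosphorylate STAT transcription factors, and SOCS proteins are induced by STATs and switch the receptors off. *Stat3* had 74.8, 54 and 107 CPM in c-KIT-high and 347, 349 and 429 CPM in c-KIT-low libraries and rose 4.78-fold (log2 fold change 2.26, SE 0.32, adjusted p = 0.00218). *Stat5a* and *Stat5b*, neighboring genes for the STAT5 proteins that BCR-ABL activates, both rose. *Stat5a* had 30.1, 28.8 and 41 CPM in c-KIT-high and 140.4, 167 and 190.01 CPM in c-KIT-low libraries (4.98-fold, adjusted p = 0.00187). *Stat5b* had 32.5, 24.5 and 45.3 CPM in c-KIT-high and 112, 127 and 157 CPM in c-KIT-low libraries (3.88-fold, adjusted p = 0.0031). *Stat6*, which acts below the IL-4 receptor, rose 6.16-fold (log2 fold change 2.62, SE 0.29, adjusted p = 0.00187), from 36.8, 35.3 and 55.6 to 249, 241 and 296 CPM. *Socs3* had 30.7, 24.2 and 13.1 CPM in c-KIT-high and 341, 210 and 171 CPM in c-KIT-low libraries, and it rose 10.6-fold (log2 fold change 3.40, SE 0.43, adjusted p = 0.00187), the most of the 27 genes in this list. Of those 27 STAT, JAK, SOCS and STAT target genes, 10 rose, 1 fell and 16 did not pass (37% and 3.7% of the list, against 17.4% and 18.7% of all genes tested), at a median log2 fold change of 0.83. In this list 9 rose and 1 fell with the length trend taken out, at a median of 0.20. The gene that fell was *Pim1*, a serine/threonine kinase induced by STAT5, with 14.7, 31.5 and 54.4 CPM in c-KIT-high and 10.1, 7.94 and 8.2 CPM in c-KIT-low libraries (3.83-fold, adjusted p = 0.0244). Without c-KIT-high library 2 or c-KIT-low library 1, 2 or 3, *Pim1* did not pass (adjusted p 0.0569 to 0.101). *Stat5b* and *Pim1* did not pass in the 12-library fit.

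The promoter of *Socs3* is shown because it holds the letters TTCNNNGAA to which STAT dimers bind. The RefSeq promoter table (GRCm38.p6) gives 250 bases before each gene start, and 9750 of the 13321 genes tested matched it by symbol. The stretch of *Socs3* at chr11:117969500-117969532, on the minus strand, runs from 166 to 134 bases before the start, with the match in capitals.
Socs3: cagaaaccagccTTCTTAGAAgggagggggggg
These letters, on either strand, stand in 7.18% of the 9750 promoters, in 7.03% of those of genes that rose and in 5.62% of those of genes that fell. They stand in 7 of 29 promoters of the cytokine receptor list and in 2 of 20 of the STAT, JAK and SOCS list. A match is a description of the letters and not of binding.

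Among genes that carry the signal of c-KIT and BCR-ABL inside the cell, every one that passed the test in the 6-library fit rose. *Akt2*, a kinase below PI3K, had 22.8, 17.7 and 10.8 CPM in c-KIT-high and 119, 101 and 107 CPM in c-KIT-low libraries and rose 6.35-fold (log2 fold change 2.67, SE 0.34, adjusted p = 0.00188). The adaptors *Shc1* and *Crk* rose 4.27-fold and 3.38-fold. Of 49 such genes, 19 rose, 0 fell and 30 did not pass, at a median log2 fold change of 0.89. This is 38.8% and 0% of the list, against 17.4% and 18.7% of all genes tested. In 27 of the 49 genes all c-KIT-low libraries were higher, as they were in 29.1% of all genes tested. With the length trend taken out, 11 rose and 1 fell (median 0.63). The counts of *Bcr* and *Abl1* do not separate the transgene from the mouse genes. *Abl1* had 19.8, 15.6 and 22.8 CPM in c-KIT-high and 33.4, 46.8 and 59.8 CPM in c-KIT-low libraries (2.41-fold, adjusted p = 0.0279). *Bcr* had 5.61, 7.49 and 3.17 CPM in c-KIT-high and 10.8, 9.77 and 12.2 CPM in c-KIT-low libraries and did not pass (adjusted p = 0.203). Without c-KIT-high library 2 or c-KIT-low library 1, 2 or 3, *Abl1* did not pass (adjusted p 0.0524 to 0.126). *Abl1* did not pass with the length trend taken out, and of the called genes named here only *Akt2* passed in the 12-library fit.

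Of the NF-κB subunit genes, 3 rose and *Rel* and *Relb* did not pass the test. *Nfkb1*, the p50 subunit, had 179, 113 and 140.4 CPM in c-KIT-high and 423, 344 and 383 CPM in c-KIT-low libraries and rose 2.65-fold (log2 fold change 1.41, SE 0.27, adjusted p = 0.00636). *Rela*, the p65 subunit, had 81.7, 103 and 42.9 CPM in c-KIT-high and 262, 215 and 284 CPM in c-KIT-low libraries and rose 3.35-fold (log2 fold change 1.74, SE 0.35, adjusted p = 0.00755). *Nfkb2* rose 3.66-fold (adjusted p = 0.0256), while *Rel*, at no more than 7.02 CPM in any library, and *Relb*, at 14.3, 4.64 and 6.81 CPM in c-KIT-high and 17.7, 20.2 and 16.8 CPM in c-KIT-low libraries, did not pass (adjusted p = 0.485 and 0.155). Among genes of the TNF/NF-κB response, 38 were tested, and 12 rose and 6 fell (31.6% and 15.8% of the list, against 17.4% and 18.7% of all genes tested; median log2 fold change 0.60, or 5, 4 and 0.66 with the length trend taken out). Those that rose included *Tnip1* and *Birc2*, regulators of TNF receptor signaling (4.02-fold and 3.09-fold). Among those that fell was the chemokine *Ccl2*, with 27.3, 33.8 and 19.6 CPM in c-KIT-high and 7.15, 5.96 and 1.45 CPM in c-KIT-low libraries. *Cflar*, an inhibitor of caspase-8, fell 2.71-fold. Of 29 AP-1, EGR and other immediate early genes, *Mafk* and *Dusp6* rose, *Klf10* and *Maff* fell, and 25 did not pass (median 0.19), while 2 rose and 4 fell with the length trend taken out, at a median of 0.30. This is 6.9% and 6.9% of the list, against 17.4% and 18.7% of all genes tested. Without c-KIT-high library 2 or 3 or c-KIT-low library 1, 2 or 3, the test was no longer passed by some or all of *Nfkb2*, *Ccl2*, *Cflar*, *Dusp6*, *Klf10* and *Maff* (adjusted p 0.0525 to 0.186). *Nfkb1*, *Nfkb2*, *Birc2*, *Ccl2*, *Dusp6* and *Maff* did not pass with the length trend taken out, and of the called genes named here only *Nfkb1* passed in the 12-library fit. The fold moved by over 1.5 times when 1 library was left out, to a log2 value of 2.46 for *Nfkb2* and -1.60 for *Klf10* without c-KIT-high library 3.

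Interferon-stimulated genes were called in shares near those of all genes. Of 54 tested, 11 rose, 13 fell and 30 did not pass (20.4% and 24.1% of the list, against 17.4% and 18.7% of all genes tested), at a median log2 fold change of 0.51 (4, 9 and 0.14 with the length trend taken out). *Oas3*, an enzyme that senses double-stranded RNA, had 0.181, 1.19 and 0.704 CPM in c-KIT-high and 14.5, 16.6 and 6.32 CPM in c-KIT-low libraries and rose 18.1-fold (log2 fold change 4.18, SE 0.89, adjusted p = 0.00931). *Adar*, an RNA-editing enzyme, rose 7.47-fold (adjusted p = 0.0019). *Ifi44* and *Oasl2* rose 5.31-fold and 3.23-fold. Those that fell included *B2m*, the light chain of MHC class I, with 7930.2, 9926 and 6600.1 CPM in c-KIT-high and 1528, 1580.3 and 1349 CPM in c-KIT-low libraries (5.49-fold, adjusted p = 0.00337). *Psmb9*, an immunoproteasome subunit, fell 3.66-fold, and *Isg20*, an exonuclease, fell 4.32-fold from 235, 146 and 114 to 33.1, 41.9 and 39.6 CPM. Without c-KIT-low library 2, *Oas3* did not pass (adjusted p = 0.0516). *Oasl2* and *B2m* did not pass with the length trend taken out, and of the called genes named here only *B2m* passed in the 12-library fit. Leaving out 1 library moved the fold by over 1.5 times, to a log2 value of 4.84 for *Oas3* without c-KIT-high library 2.

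Several genes of the Wnt and Hedgehog pathways, both known for a part in the self-renewal of leukemic stem cells, were higher. *Ctnnb1*, the β-catenin gene, whose protein carries the Wnt signal into the nucleus, had 83.6, 83.2 and 119 CPM in c-KIT-high and 350.2, 371 and 366 CPM in c-KIT-low libraries. It rose 3.81-fold (log2 fold change 1.93, SE 0.26, adjusted p = 0.00203), and the 3 c-KIT-low values lay within 21 CPM of each other. *Axin1*, of the complex that degrades β-catenin, rose 4.54-fold, and *Dvl2* and *Pygo2*, which pass the Wnt signal on, rose 4.02-fold and 4.4-fold. Of 33 Wnt pathway genes, 10 rose (30.3% of the list, against 17.4% of all genes tested), 0 fell and 23 did not pass (median log2 fold change 1.02), against 6, 3 and a median of 0.39 with the length trend taken out. *Smo*, the transducer of the Hedgehog signal, had 19.8, 9.27 and 17 CPM in c-KIT-high and 104, 113 and 105 CPM in c-KIT-low libraries and rose 6.97-fold (log2 fold change 2.80, SE 0.35, adjusted p = 0.00187). *Sufu* and *Prkaca* rose 3.81-fold and 3.99-fold, and *Spop*, an adaptor for protein degradation, rose 1.73-fold. These were the 4 that passed of 14 tested (28.6% of the list, against 17.4% of all genes tested), at a median of 1.09, and 3 rose and 1 fell with the length trend taken out, at a median of 0.51. *Smo* passes the signal on, while *Sufu* and *Prkaca* hold it back. In the TGF-β/BMP pathway, 9 of 31 genes rose and 2 fell (29% and 6.45% of the list, against 17.4% and 18.7% of all genes tested) at a median of 0.86, and 6 rose and 1 fell with the length trend taken out, at a median of 0.20. The receptor chains parted, as *Tgfbr2* rose 5-fold, from 17.5, 15.7 and 13.7 to 90.2, 63.5 and 81 CPM, and *Tgfbr1* fell 6.64-fold, from 14.6, 145 and 48 to 13.5, 8.83 and 8.82 CPM. *Smad4*, the shared SMAD, and *Ski*, a repressor of SMADs, rose 3.72-fold and 7.86-fold, and *Id1*, a BMP target, fell 4.1-fold. Calls were lost among *Spop*, *Tgfbr1* and *Id1* without c-KIT-high library 1 or 2 or c-KIT-low library 1, 2 or 3 (adjusted p 0.0653 to 0.159). *Spop* and *Id1* did not pass with the length trend taken out, and of the called genes named here only *Ctnnb1*, *Axin1*, *Smo*, *Prkaca* and *Ski* passed in the 12-library fit. With 1 library left out, the fold moved by over 1.5 times, to a log2 value of -1.58 for *Tgfbr1* without c-KIT-high library 2, and to 3.73 for *Ski* without c-KIT-high library 3.

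*Myc*, a transcription factor of growth and ribosome production, had 249, 187 and 172 CPM in c-KIT-high and 442, 452 and 544 CPM in c-KIT-low libraries, and it rose 2.36-fold (log2 fold change 1.24, SE 0.27, adjusted p = 0.01). *Mycn*, its relative, had 40.2, 49 and 73.3 CPM in c-KIT-high and 205, 238 and 266 CPM in c-KIT-low libraries and rose 4.36-fold (log2 fold change 2.13, SE 0.30, adjusted p = 0.0022). The antagonists of the MYC network went both ways, with *Mxd1* and *Mxi1* higher (2.81-fold and 1.98-fold) and *Mxd3* lower (4.76-fold). *Zbtb17*, a partner of MYC in repression, rose 3-fold. Of 18 genes of the network, these 5 rose and 1 fell (27.8% and 5.56% of the list, against 17.4% and 18.7% of all genes tested), and 2 rose and 2 fell with the length trend taken out, at a median of 0.27. Of 52 MYC targets of ribosome assembly and growth, 8 rose and 13 fell (15.4% and 25% of the list, against 17.4% and 18.7% of all genes tested), at a median log2 fold change of -0.06 (7, 15 and -0.47 with the length trend taken out). *Nop2* and *Polr1b*, of ribosomal RNA synthesis, rose 3.81-fold and 5.02-fold, whereas *Npm1*, nucleophosmin, fell 2.52-fold from 332, 381 and 362 to 145, 157 and 124 CPM. Among *Myc*, *Mxd1*, *Mxi1* and *Zbtb17*, calls were lost when c-KIT-high library 1 or 2 or c-KIT-low library 1, 2 or 3 was left out (adjusted p 0.0531 to 0.148). *Mxd1*, *Mxi1* and *Zbtb17* did not pass with the length trend taken out, and of the called genes named here only *Myc*, *Mycn* and *Nop2* passed in the 12-library fit.

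Of 41 transcription factors of HSCs, 5 rose, 6 fell and 30 did not pass, at a median log2 fold change of -0.18. These were 12.2% and 14.6% of the list, against 17.4% and 18.7% of all genes tested, and 4 rose and 7 fell with the length trend taken out, at a median of -0.39. *Gata2* had 118, 143 and 231 CPM in c-KIT-high and 562, 472 and 562 CPM in c-KIT-low libraries and rose 3.24-fold (log2 fold change 1.70, SE 0.32, adjusted p = 0.00591). *Gfi1*, a repressor that restrains HSC proliferation, rose 16.1-fold, from 2.26, 0.713 and 3.17 to 31.8, 15.2 and 52.6 CPM. *Etv6* rose 2.2-fold and *Hlf* rose 1.99-fold, and the fifth gene was *Mycn*. The gene that fell most was *Hmga2*, which encodes an architectural DNA-binding protein, with 29.5, 180.3 and 509 CPM in c-KIT-high and 4.14, 3.72 and 4.04 CPM in c-KIT-low libraries (60.2-fold, adjusted p = 0.00327). Its c-KIT-high libraries were far apart, with library 1 lowest. *Lyl1*, *Hoxa7* and *Msi2* fell 6.58-fold, 3.47-fold and 3.3-fold. Of 39 genes linked to HSC quiescence, 9 rose and 1 fell (23.1% and 2.56% of the list, against 17.4% and 18.7% of all genes tested), at a median log2 fold change of 0.42, and 6 rose and 2 fell with the length trend taken out, at a median of -0.06. *Tsc2*, an inhibitor of mTORC1, rose 17.7-fold, *Rbl2*, the pocket protein p130, rose 6.12-fold, and *Sesn1*, a sestrin, rose 2.68-fold. The gene that fell was *Hes1*, with 9.95, 121 and 553 CPM in c-KIT-high and 6.17, 6.81 and 17.9 CPM in c-KIT-low libraries (22.1-fold, adjusted p = 0.0245). Its groups overlapped. Without c-KIT-high library 2 or 3 or c-KIT-low library 1, 2 or 3, the test was no longer passed by some or all of *Etv6*, *Hlf*, *Msi2* and *Hes1* (adjusted p 0.054 to 0.105). *Etv6*, *Hlf* and *Hes1* did not pass with the length trend taken out, and of the called genes named here only *Gfi1*, *Mycn*, *Hmga2* and *Sesn1* passed in the 12-library fit. The fold moved by over 1.5 times when 1 library was left out, to a log2 value of -4.75 for *Hmga2*, 4.88 for *Tsc2* and -2.70 for *Hes1* without c-KIT-high library 3, and to -5.09 for *Hes1* without c-KIT-low library 3.

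Genes of mitosis were lower in CML c-KIT-low LT-HSCs. *Cdkn3*, a phosphatase that peaks at the G1/S border and in mitosis, had 268, 246 and 231 CPM in c-KIT-high and 14.9, 14.3 and 12.9 CPM in c-KIT-low libraries, and it fell 17.7-fold (log2 fold change -4.15, SE 0.26, adjusted p = 0.00185). *Pttg1*, which encodes securin, had 481, 392 and 244 CPM in c-KIT-high and 57.6, 49.1 and 34.7 CPM in c-KIT-low libraries and fell 7.9-fold (log2 fold change -2.98, SE 0.36, adjusted p = 0.00187). *Hmgb2*, a chromatin protein of dividing cells, had 419, 672 and 526 CPM in c-KIT-high and 74.2, 71 and 57.5 CPM in c-KIT-low libraries and fell 7.98-fold (adjusted p = 0.00185). In each of these genes all c-KIT-low libraries lay far below all c-KIT-high libraries. *Stmn1*, stathmin, fell 7.51-fold, from 688, 718 and 365 to 73.4, 71.4 and 91 CPM. Of 60 G2/M and mitosis genes, 29 fell, 3 rose and 28 did not pass, at a median log2 fold change of -0.95 against 0.05 over all genes tested, of which 18.7% fell. With the length trend taken out, 31 fell and 0 rose (median -1.44). The 3 that rose were *Ncapd2*, a condensin subunit (2.85-fold), *Bub1b*, of the spindle checkpoint (2.07-fold), and *Incenp*, of the chromosomal passenger complex (1.66-fold). Calls were lost among *Bub1b* and *Incenp* without c-KIT-high library 1 or 2 or c-KIT-low library 1, 2 or 3 (adjusted p 0.0574 to 0.185). *Ncapd2*, *Bub1b* and *Incenp* did not pass with the length trend taken out, and *Ncapd2*, *Bub1b* and *Incenp* did not pass in the 12-library fit.

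Genes of DNA replication that E2F factors control held both rises and falls. *Mcm2*, of the MCM2 to MCM7 helicase, had 134, 96.4 and 103 CPM in c-KIT-high and 591, 557 and 513 CPM in c-KIT-low libraries and rose 4.99-fold (log2 fold change 2.32, SE 0.27, adjusted p = 0.00187). *Chaf1a*, a histone chaperone of the replication fork, rose 5.09-fold, and *Pold1*, the catalytic subunit of DNA polymerase δ, rose 4.47-fold from 96, 86.4 and 55.6 to 334, 325 and 406 CPM. *Uhrf1*, which reads hemimethylated DNA, rose 3.22-fold. In contrast, *Rpa3*, the smallest subunit of the single-strand binding protein RPA, had 259, 384 and 213 CPM in c-KIT-high and 40.9, 44.6 and 33.2 CPM in c-KIT-low libraries and fell 7.21-fold (log2 fold change -2.85, SE 0.31, adjusted p = 0.00187). *Gins1*, of the GINS complex, *Rfc4*, of the clamp loader, and *Tipin* fell 3.2-fold, 2.9-fold and 3.12-fold. Among 54 genes of this kind 13 rose and 17 fell, while 24 did not pass (24.1% and 31.5% of the list, against 17.4% and 18.7% of all genes tested; median log2 fold change 0.07, or 8, 19 and -0.19 with the length trend taken out). Among 22 G1 cyclins, CDKs and E2F genes, *E2f4*, *E2f6* and *Ccnd3* rose (6.6-fold, 2.11-fold and 1.96-fold) and *Cdk6*, *Ccnh*, *Ccnd2* and *Cdk7* fell (13.6% and 18.2% of the list, against 17.4% and 18.7% of all genes tested), and 1 rose and 5 fell with the length trend taken out, at a median of -0.38. *Ccnd2*, cyclin D2, fell from 921, 825 and 721 to 369, 305 and 340.2 CPM. Among *E2f6*, *Ccnd3*, *Cdk6*, *Ccnd2* and *Cdk7*, calls were lost when c-KIT-high library 2 or 3 or c-KIT-low library 1, 2 or 3 was left out (adjusted p 0.0513 to 0.155). *Gins1*, *Rfc4*, *E2f6* and *Ccnd3* did not pass with the length trend taken out, and *Uhrf1*, *Rfc4*, *E2f6*, *Ccnd3*, *Cdk6*, *Ccnd2* and *Cdk7* did not pass in the 12-library fit. Leaving out 1 library moved the fold by over 1.5 times, to a log2 value of -1.21 for *Cdk6* without c-KIT-high library 3.

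Promoters of some of these genes are shown, all with a match. Late cell cycle genes commonly carry CCAAT and TTTGAA letters (the latter known as CHR) and replication genes E2F letters. The search gave no CCAAT or TTTGAA match for *Stmn1* and *Pttg1* and no E2F match for *Gins1*, *Rfc4*, *Tipin* and *Pold1*. Some of these genes may have had no promoter to search. The promoter of *Mcm2* held no E2F letters. The capitals mark CCAAT and TTTGAA in *Cdkn3*, *Hmgb2* and *Mcm2* and the E2F letters (TTCCCGC or otherwise TTCGCGC or otherwise TTGCCGC or otherwise TTGGCGC) in *Chaf1a* and *Rpa3*, read on either strand. They come from the RefSeq promoter table and lie at chr14:46760380-46760523 (*Cdkn3*, plus strand), chr8:57511593-57511842 (*Hmgb2*, plus strand), chr6:88898833-88898967 (*Mcm2*, minus strand), chr17:56040348-56040387 (*Chaf1a*, plus strand) and chr6:8259152-8259182 (*Rpa3*, minus strand) of GRCm38.p6.
Cdkn3: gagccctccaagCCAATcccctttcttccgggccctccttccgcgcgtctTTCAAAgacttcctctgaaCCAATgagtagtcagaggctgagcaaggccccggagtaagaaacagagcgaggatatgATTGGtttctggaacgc
Hmgb2: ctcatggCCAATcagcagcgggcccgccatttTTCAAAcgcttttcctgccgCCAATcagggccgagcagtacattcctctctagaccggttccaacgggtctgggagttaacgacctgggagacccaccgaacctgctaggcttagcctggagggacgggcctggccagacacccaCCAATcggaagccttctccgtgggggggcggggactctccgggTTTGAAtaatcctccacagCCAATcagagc
Mcm2: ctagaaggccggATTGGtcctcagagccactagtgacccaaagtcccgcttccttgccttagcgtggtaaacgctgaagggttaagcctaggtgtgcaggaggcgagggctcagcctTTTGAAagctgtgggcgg
Chaf1a: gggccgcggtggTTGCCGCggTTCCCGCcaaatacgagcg
Rpa3: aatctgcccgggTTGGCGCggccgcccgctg
Among 51 G2/M promoters, 41.2% held TTTGAA and 74.5% held CCAAT, against 12.9% and 40.5% of the 9750 promoters of genes tested. Of the G2/M genes that fell, 11 of 26 held TTTGAA and 19 of 26 held CCAAT. Of the 43 replication promoters, 46.5% held E2F letters, against 16.4% of all, with 5 of 12 among those that rose and 4 of 12 among those that fell. Over all genes that rose or fell, TTTGAA stood in 12.1% and 13.7% and CCAAT in 40% and 40.1%.

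Most genes of the ribosome, of oxidative phosphorylation (OXPHOS) and of the proteasome fell. *Rpl23*, of the large ribosomal subunit, had 302, 774 and 529 CPM in c-KIT-high and 41.3, 42.4 and 40.4 CPM in c-KIT-low libraries and fell 12.9-fold (log2 fold change -3.69, SE 0.39, adjusted p = 0.00187). *Rps20*, of the small subunit, had 641, 1598 and 1119.9 CPM in c-KIT-high and 68.7, 98.9 and 78.7 CPM in c-KIT-low libraries (13.6-fold lower). Of 79 cytosolic ribosomal protein genes, 67 fell (84.8%, against 18.7% of all genes tested), 0 rose and 12 did not pass, at a median log2 fold change of -2.54. These genes are short, with a median of 1.77 kb of exonic sequence, and share near-identical copies with many pseudogenes. Reads that matched several places were given to no gene, and their share was higher in the c-KIT-high libraries. With the length trend taken out, 46 fell and the median was -1.61. *Ndufa5*, of complex I, had 535, 2093 and 1444 CPM in c-KIT-high and 59.4, 61.8 and 67.3 CPM in c-KIT-low libraries and fell 21.6-fold (log2 fold change -4.43, SE 0.54, adjusted p = 0.00187). *Ndufa12* and *Ndufc2*, of the same complex, fell 11.8-fold and 9.63-fold. Of 77 nuclear OXPHOS subunits, 65 fell and 2 rose (84.4% fell; median -2.91, or 56, 0 and -1.54 with the length trend taken out). The 2 that rose were the large catalytic subunits *Ndufs1* (2.87-fold) and *Sdha* (2.26-fold). Mitochondrially encoded genes were lower as well. *mt-Co1*, of complex IV, had 1191, 1389 and 2008 CPM in c-KIT-high and 317, 341 and 263 CPM in c-KIT-low libraries and fell 4.98-fold (log2 fold change -2.32, SE 0.34, adjusted p = 0.00227). Of the 13 mitochondrial mRNAs, 7 passed the filter and all 7 fell (3 with the length trend taken out). Mitochondrially encoded genes took 0.416% to 2.88% of gene counts in c-KIT-high and 0.143% to 0.203% in c-KIT-low libraries (exact permutation p = 0.1). Among 33 proteasome subunits 20 fell and 2, the large *Psmd1* and *Psmd2*, rose (60.6% fell; median -1.15), and 18 fell and 1 rose with the length trend taken out. *Psma3*, of the core particle, fell from 144, 157 and 198 to 46.8, 56.6 and 40.5 CPM (3.47-fold). Without c-KIT-low library 1, 2 or 3, the test was no longer passed by some or all of *Sdha* and *Psmd1* (adjusted p 0.0695 to 0.0837). *Ndufs1*, *Sdha* and *Psmd1* did not pass with the length trend taken out, and *Sdha* and *Psmd1* did not pass in the 12-library fit.

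Genes of glucose uptake and glycolysis that passed the test were higher, apart from *Hk2*. *Slc2a3*, the transporter GLUT3, had 40.7, 35.8 and 44.7 CPM in c-KIT-high and 222, 241 and 273 CPM in c-KIT-low libraries and rose 6.07-fold (log2 fold change 2.60, SE 0.25, adjusted p = 0.00185). *Slc2a1*, the transporter GLUT1, had 29.3, 25.8 and 26.4 CPM in c-KIT-high and 82.8, 85.7 and 95.2 CPM in c-KIT-low libraries (3.24-fold higher). *Pfkl*, phosphofructokinase, rose 5.41-fold, from 146, 70.7 and 102 to 566, 472 and 685 CPM. The hexokinases parted. *Hk1* rose 3.76-fold, from 108, 138 and 195 to 593, 478 and 591 CPM, and *Hk2* fell 16.4-fold, from 61.4, 473 and 1245 to 33.4, 32.8 and 42.3 CPM. Of 31 glycolysis genes, 12 rose and 1, *Hk2*, fell (38.7% and 3.23% of the list, against 17.4% and 18.7% of all genes tested; median log2 fold change 0.91, or 7, 1 and 0.50 with the length trend taken out). Of 32 HIF factors and hypoxia genes, 15 rose and 5 fell (46.9% and 15.6% of the list, against 17.4% and 18.7% of all genes tested) at a median of 1.03, and 7 rose and 3 fell with the length trend taken out, at a median of 0.63. Those that rose included the HIF subunits *Arnt* (4.55-fold) and *Hif1a* (2.98-fold) and *Vhl* (3.31-fold), which marks HIF for degradation. Those that fell were the HIF targets *Mif*, *Higd1a*, *Fam162a*, *Ankrd37* and *Hilpda*, the last of which had 0.15 on the log2 scale with the length trend taken out. In fatty acid oxidation, 10 of 35 genes rose and 4 fell (28.6% and 11.4% of the list, against 17.4% and 18.7% of all genes tested) at a median of 0.49, and 6 rose and 5 fell with the length trend taken out, at a median of 0.17. *Cpt1a*, which brings fatty acids into mitochondria, rose 5.91-fold, from 21.2, 41.8 and 38 to 212, 153 and 231 CPM. The 4 that fell were *Etfa*, *Etfb*, *Decr1* and *Eci1*. Calls were lost among *Hk2*, *Hif1a*, *Vhl*, *Ankrd37*, *Hilpda*, *Etfa*, *Decr1* and *Eci1* without c-KIT-high library 1 or 2 or c-KIT-low library 1, 2 or 3 (adjusted p 0.0517 to 0.152). *Hif1a*, *Fam162a*, *Ankrd37*, *Hilpda*, *Etfa*, *Etfb* and *Eci1* did not pass with the length trend taken out, and of the called genes named here only *Hk2*, *Slc2a3*, *Slc2a1*, *Pfkl*, *Mif*, *Higd1a*, *Fam162a* and *Cpt1a* passed in the 12-library fit. With 1 library left out, the fold moved by over 1.5 times, to a log2 value of -2.43 for *Mif* and -2.16 for *Higd1a* without c-KIT-high library 2, and to -2.91 for *Hk2* without c-KIT-high library 3.

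In DNA repair, 12 of 53 genes rose and 11 fell (22.6% and 20.8% of the list, against 17.4% and 18.7% of all genes tested), at a median log2 fold change of 0.30, and 7 rose and 13 fell with the length trend taken out, at a median of -0.09. *Parp1*, a sensor of DNA breaks, had 72.6, 82.6 and 91.8 CPM in c-KIT-high and 395, 359.6 and 388 CPM in c-KIT-low libraries and rose 4.63-fold (log2 fold change 2.21, SE 0.24, adjusted p = 0.00187). *Msh6*, of mismatch repair, and *Ddb1*, of nucleotide excision repair, rose 6.38-fold and 6-fold. The 4 with the smallest p among those that fell were the small RNA polymerase II subunits *Polr2f*, *Polr2g*, *Polr2j* and *Polr2k*, which repair lists hold because of transcription-coupled repair. Of 30 genes of p53 and its targets, 7 rose and 2 fell (23.3% and 6.67% of the list, against 17.4% and 18.7% of all genes tested) at a median of 0.73, and 5 rose and 1 fell with the length trend taken out, at a median of 0.37. *Mdm2*, the ligase that degrades p53, rose 4.76-fold from 15.3, 14.5 and 20.9 to 85.6, 70.6 and 84.8 CPM, and the 2 that fell were *Gadd45a* and the death effector *Bax* (4.77-fold and 2.45-fold). In the BCL2 family, the anti-apoptotic *Bcl2l1*, which encodes BCL-XL, was the 1 of 13 that rose, with 32.8, 19 and 22.1 CPM in c-KIT-high and 58.8, 59.2 and 73.9 CPM in c-KIT-low libraries (adjusted p = 0.0137). The pro-apoptotic *Bak1*, *Bad* and *Bax* fell, *Bax* with 234, 197 and 122 CPM in c-KIT-high and 74.3, 66.8 and 84.5 CPM in c-KIT-low libraries. Over the family this is 7.69% and 23.1% of the list, against 17.4% and 18.7% of all genes tested, and 0 rose and 2 fell with the length trend taken out, at a median of 0.03. Of 31 stress response and chaperone genes, 9 rose and 3 fell (29% and 9.68% of the list, against 17.4% and 18.7% of all genes tested) at a median of 0.34, and 7 rose and 4 fell with the length trend taken out, at a median of 0.38. *Hspa5*, the ER chaperone BiP, had 572, 547 and 598 CPM in c-KIT-high and 1519.5, 1514 and 1539 CPM in c-KIT-low libraries and rose 2.66-fold (log2 fold change 1.41, SE 0.28, adjusted p = 0.00692). *Xbp1*, an ER stress factor, rose 2.47-fold, and *Hsp90aa1*, *Hspe1* and *Ddit3*, which encodes CHOP, fell 4.21-fold, 9.22-fold and 5.37-fold. Among *Gadd45a*, *Bax*, *Bcl2l1*, *Bak1* and *Bad*, calls were lost when c-KIT-high library 2 or c-KIT-low library 1, 2 or 3 was left out (adjusted p 0.0531 to 0.0945). *Polr2g*, *Bax* and *Bcl2l1* did not pass with the length trend taken out, and *Ddb1*, *Gadd45a*, *Bax*, *Bcl2l1*, *Bak1*, *Bad*, *Xbp1* and *Ddit3* did not pass in the 12-library fit. The fold moved by over 1.5 times when 1 library was left out, to a log2 value of -2.83 for *Polr2f* and -2.61 for *Hspe1* without c-KIT-high library 2, and to -2.87 for *Bak1* without c-KIT-high library 3.

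Among 30 autophagy genes, 8 rose and 4 fell (26.7% and 13.3% of the list, against 17.4% and 18.7% of all genes tested; median log2 fold change 0.78, or 6, 2 and 0.44 with the length trend taken out). *Atg9a*, a membrane protein of the forming autophagosome, had 3.26, 2.73 and 2.93 CPM in c-KIT-high and 38.9, 41.6 and 54.4 CPM in c-KIT-low libraries and rose 15.1-fold (log2 fold change 3.91, SE 0.40, adjusted p = 0.00187). Those that fell were *Atg3*, *Atg10*, *Gabarap* and *Gabarapl2*, of the conjugation of ATG8 proteins to lipid. Of 34 DNA methylation and Polycomb genes, 5 rose and 0 fell (14.7% and 0% of the list, against 17.4% and 18.7% of all genes tested) at a median of 0.15, a direction that turned with the length trend taken out, when 1 rose and 4 fell at a median of -0.25. Those that rose included the Polycomb readers *Cbx2* and *Cbx7*, the DNA methyltransferase *Dnmt3b*, which rose from 13.9, 21.4 and 23.6 to 60.8, 78.9 and 80.8 CPM, and the coactivator *Ncoa1*. Without c-KIT-high library 2 or c-KIT-low library 1, 2 or 3, the test was no longer passed by some or all of *Atg3*, *Atg10*, *Gabarap*, *Gabarapl2*, *Cbx2*, *Cbx7* and *Ncoa1* (adjusted p 0.0524 to 0.132). *Atg10*, *Gabarap*, *Cbx2*, *Cbx7* and *Ncoa1* did not pass with the length trend taken out, and of the called genes named here only *Atg9a* passed in the 12-library fit. Leaving out 1 library moved the fold by over 1.5 times, to a log2 value of 3.55 for *Cbx2* without c-KIT-high library 3.

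**Figure D3:**
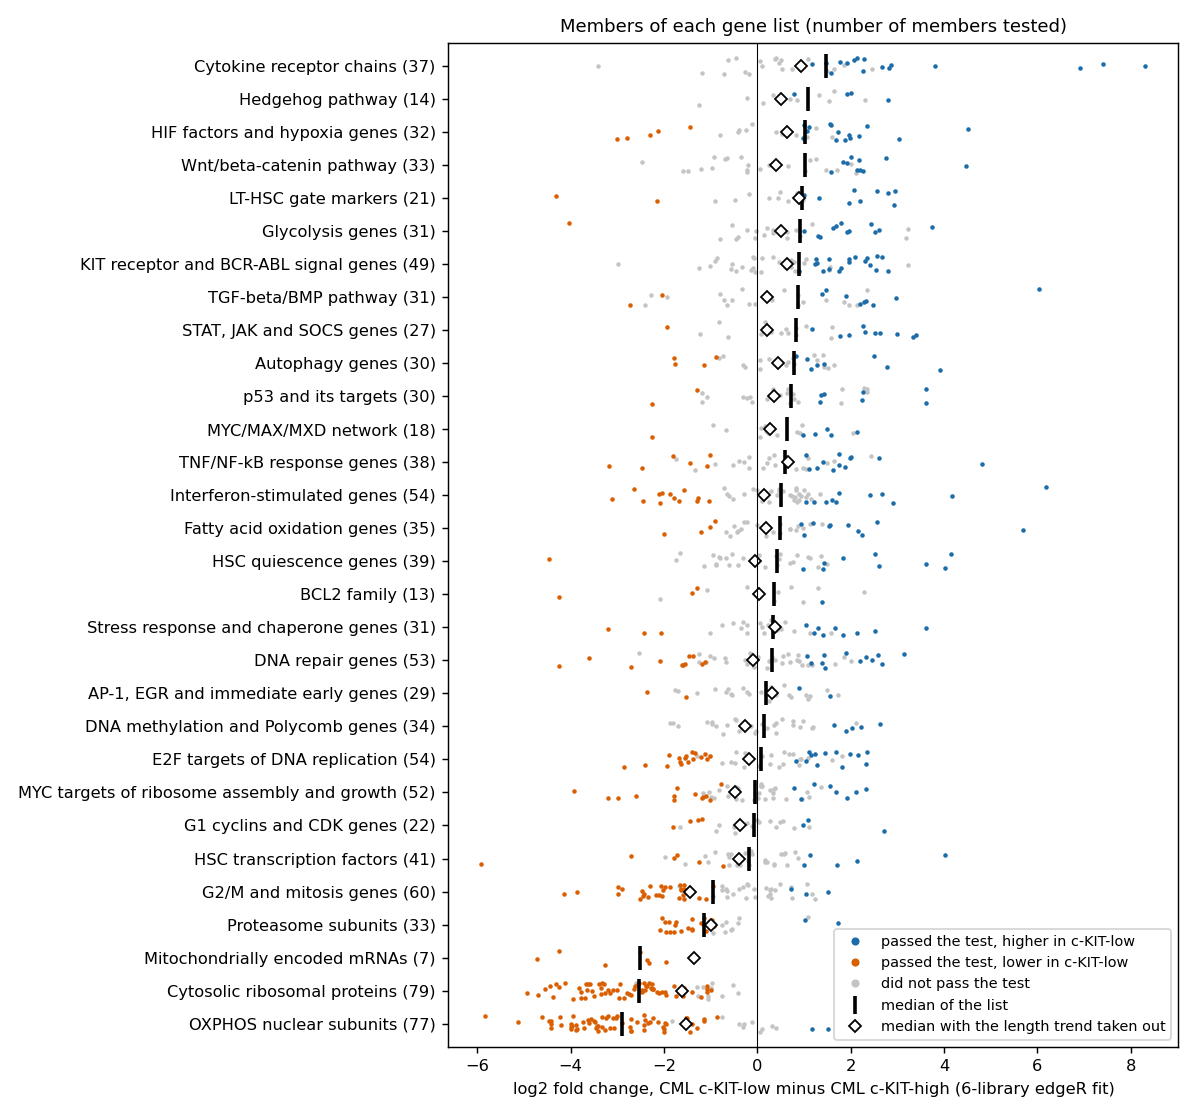
Log2 fold change of CML c-KIT-low minus CML c-KIT-high LT-HSCs (horizontal axis) for each tested member of 30 gene lists (rows, number tested in brackets; height within a row is only spacing). Blue points passed the test upward, orange points downward and gray points did not pass; black bars are list medians and open diamonds the medians with the length trend taken out, which stand at 1.46 and 0.93 for cytokine receptor chains, at -2.54 and -1.61 for ribosomal proteins and at -2.91 and -1.54 for OXPHOS subunits.

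The largest changes, taken among called genes at a mean of 20 CPM or more without overlap, are described next. Immunoglobulin genes made up 4 of the 10 largest rises. *Ighm*, the heavy chain of IgM, had 8.96, 0.713 and 0.939 CPM in c-KIT-high and 5633, 3734 and 1124 CPM in c-KIT-low libraries (964-fold, adjusted p = 0.00199). *Igkc*, the κ light chain, had 5.61, 0.357 and 67.6 CPM in c-KIT-high and 5044, 1778 and 622 CPM in c-KIT-low libraries (adjusted p = 0.0183). *Ighj1* and *Iglv1* had 0 counts in all c-KIT-high libraries and were at least 499-fold and at least 564-fold higher in c-KIT-low cells, with the floor set at 3 counts summed over the c-KIT-high libraries. *Jchain*, which joins IgM into pentamers, had 2.17, 0 and 1.53 CPM in c-KIT-high and 102, 77.6 and 44.3 CPM in c-KIT-low libraries (58.9-fold, adjusted p = 0.00321). All of these were highest in c-KIT-low library 1 and lowest in c-KIT-low library 3. The rest of the 10 were *Itga5*, which encodes a fibronectin receptor chain (16.3-fold), *Sbno2* (17.4-fold), *Sox13* (18.7-fold), *Tsc2* and *Emc1* (20.9-fold). *Itga5* had 7.42, 7.84 and 10.6 CPM in c-KIT-high and 137, 129 and 154 CPM in c-KIT-low libraries and differed little among replicates. The 10 largest falls, of which 7 have under 1 kb of exonic sequence, were *Gm10800*, *n-R5-8s1*, *Snord13*, *Gm23935*, *Gm7461*, *Usp50*, *Gm11770*, *Smim27*, *Gm24601* and *Samd15*. *Snord13*, a small nucleolar RNA, had 19.2, 315 and 378 CPM in c-KIT-high and 2.32, 2.87 and 0.834 CPM in c-KIT-low libraries. *Usp50*, a protease-like gene, had 5.52, 55 and 91.8 CPM in c-KIT-high and 0.447, 0.762 and 0.439 CPM in c-KIT-low libraries. In all 10 genes c-KIT-high library 1 was the lowest and c-KIT-high library 3 the highest of the c-KIT-high libraries. Calls were lost among *Igkc*, *Iglv1*, *n-R5-8s1*, *Gm24601* and *Samd15* without c-KIT-high library 2 or c-KIT-low library 1, 2 or 3 (adjusted p 0.0519 to 0.0665). *n-R5-8s1*, *Gm23935* and *Gm24601* did not pass with the length trend taken out, and *Jchain*, *Sox13*, *Tsc2*, *Gm7461* and *Samd15* did not pass in the 12-library fit. With 1 library left out, the fold moved by over 1.5 times, to a log2 value of 12.05 for *Ighm* and 6.62 for *Jchain* without c-KIT-high library 1, and to 9.66 for *Igkc*, 4.88 for *Tsc2*, -7.96 for *Gm10800*, -4.50 for *n-R5-8s1*, -4.66 for *Gm23935*, -4.08 for *Gm7461*, -5.79 for *Usp50*, -5.57 for *Gm11770*, -5.60 for *Smim27*, -4.22 for *Gm24601* and -3.55 for *Samd15* without c-KIT-high library 3, and to 5.66 for *Igkc* without c-KIT-low library 1.

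Markers of other blood cells were measured in the same libraries. The 14 B cell markers summed to 200.4 to 216 CPM in c-KIT-high and 1815 to 10775 CPM in c-KIT-low libraries, and *Ighm* and *Igkc* made up nearly all of the latter. Of these 14, *Ms4a1*, *Pax5*, *Igll1* and *Rag2* were at 0 in all 6 libraries, and *Cd79b*, of the B cell receptor, and *Vpreb1*, of the pre-B cell receptor, fell (2.11-fold and 16.3-fold), though the log2 fold change of *Cd79b* was 0.11 with the length trend taken out. Only 4 of the 14 passed the filter, 2 that rose and 2 that fell. The 16 neutrophil markers summed to 1024 to 2912 CPM in c-KIT-high and 266 to 2073 CPM in c-KIT-low libraries, with c-KIT-high library 3 and c-KIT-low library 1 highest, and 0 of 12 tested passed. The 18 monocyte and dendritic cell markers summed to 819.95 to 1634 and 785 to 879 CPM, where *Cd74*, *Irf8* and *Csf1r* rose and *Lyz2*, which encodes lysozyme, fell from 1096, 992 and 626 to 383, 391 and 381 CPM (log2 fold change -1.23, or 0.09 with the length trend taken out). *Csf1r* had 1 count over the c-KIT-high libraries, a ratio of 218 (95% counting interval 39 to 8642) for c-KIT-low cells. That interval covers counting error only, and library 1 held most of the c-KIT-low counts (17.7, 1.17 and 3.55 CPM). The 16 erythroid markers summed to 3789.6 to 5902 CPM in c-KIT-high and 1591 to 1639 CPM in c-KIT-low libraries, of which *Car2*, carbonic anhydrase 2, took the most and fell from 5406, 4159.6 and 3232 to 1275, 1203 and 1309.9 CPM, while *Ermap* was at 0. *Klf1* and the globins *Hba-a1*, *Hba-a2* and *Hbb-bt* also fell and *Aqp1* rose. The 17 megakaryocyte markers summed to 2581 to 3574 CPM in c-KIT-high and 4838 to 5588 CPM in c-KIT-low libraries, and 7 rose and 2, *Pf4* and *Gp9*, fell, though their log2 fold changes turned to 0.72 and 0.34 with the length trend taken out. *Selp*, P-selectin, rose 5.57-fold, and some of these genes, *Itga2b* among them, are also genes of LT-HSCs. The 15 T and NK cell markers summed to 354 to 1218 and 225 to 270.1 CPM, with *Cd3e*, *Cd3g*, *Cd8b1*, *Zap70* and *Gzma* at 0 and *Nkg7* and *Trac* lower (-1.85 and -5.00 on the log2 scale, or 0.00 and -3.46 with the length trend taken out). The 14 mast cell and basophil markers summed to 525 to 1594 and 551 to 1624 CPM, with *Gata2* higher and *Fcer1g* lower. The 16 endothelial and stromal markers summed to 88.3 to 128 and 163 to 199 CPM, with *Pecam1* and *Col1a2* higher. Over all genes tested, 17.4% rose and 18.7% fell. These shares were 23.1% and 7.69% of 13 monocyte and dendritic cell markers and 10% and 50% of 10 erythroid markers. They were 43.75% and 12.5% of 16 megakaryocyte markers and 0% and 33.3% of 6 T and NK cell markers. For 10 mast cell and basophil markers they were 10% and 10%, and for 9 endothelial and stromal markers 22.2% and 0%. The part of other cells in the gene groups above was not tested. Among *Igkc*, *Cd79b*, *Irf8*, *Csf1r*, *Lyz2*, *Car2*, *Klf1*, *Hba-a1*, *Hba-a2*, *Aqp1*, *Pf4*, *Gp9*, *Nkg7*, *Trac* and *Col1a2*, calls were lost when c-KIT-high library 1, 2 or 3 or c-KIT-low library 1, 2 or 3 was left out (adjusted p 0.0505 to 0.247). *Cd79b*, *Irf8*, *Lyz2*, *Klf1*, *Hba-a1*, *Hba-a2*, *Hbb-bt*, *Pf4*, *Gp9*, *Nkg7*, *Trac*, *Fcer1g* and *Col1a2* did not pass with the length trend taken out, and of the called genes named here only *Ighm*, *Igkc*, *Cd74*, *Csf1r*, *Itga2b* and *Fcer1g* passed in the 12-library fit. The fold moved by over 1.5 times when 1 library was left out, to a log2 value of 12.05 for *Ighm* and 6.81 for *Csf1r* without c-KIT-high library 1, and to 10.06 for *Csf1r* without c-KIT-high library 2, and to 9.66 for *Igkc*, -1.69 for *Hba-a1*, -3.08 for *Hba-a2* and -4.34 for *Trac* without c-KIT-high library 3, and to 5.66 for *Igkc*, -4.69 for *Vpreb1*, 5.73 for *Csf1r* and -9.79 for *Trac* without c-KIT-low library 1, and to -4.41 for *Trac* without c-KIT-low library 2, and to -4.41 for *Trac* without c-KIT-low library 3.

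The same contrast was measured in normal LT-HSCs, and the change in CML was set against it in the 12-library fit. No gene passed the test of the difference between the CML and the normal change among 14676 genes tested (0.0% called by edgeR, 1663 at an unadjusted p under 0.05, 286 called by DESeq2 and 12 by limma-voom). In the normal contrast 455 genes rose (3.1%) and 499 fell (3.4%). For *Socs3* the log2 fold change was 3.45 in CML and 3.76 in normal LT-HSCs, a difference of -0.32 (SE 1.32, unadjusted p = 0.81). For *Cdkn3* the values were -4.11 and -3.41 (unadjusted p = 0.395). *Pttg1* had -2.94 in CML and 0.64 in normal LT-HSCs (difference -3.58, SE 0.80, unadjusted p = 0.000681). *Ly6a* had a difference of -3.53 (SE 0.77, unadjusted p = 0.000564), since it had 62.7, 50.1 and 56.7 CPM in normal c-KIT-high and 408, 186 and 856 CPM in normal c-KIT-low libraries. *Kit* had 2.01 in CML and 1.43 in normal LT-HSCs (unadjusted p = 0.589). The normal *Kit* libraries did not share 1 direction, with 132, 143 and 129 CPM in normal c-KIT-high and 380, 675 and 33.6 CPM in normal c-KIT-low libraries. Normal c-KIT-low library 3 lay below every normal c-KIT-high library. None of these unadjusted values held after adjustment over all genes. G2/M genes had a median log2 fold change of -1.39 in normal LT-HSCs, with 9 of 60 that fell, and OXPHOS subunits of -2.04, with 27 of 77. Interferon-stimulated genes had a median of 1.29, with 10 of 54 that rose and 0 that fell, against 0.55 in CML in the same fit. Proteasome subunits had a median of -0.13 in normal and -1.11 in CML LT-HSCs. The normal fractions also differed in library make-up. Entries on genes were 24.4% to 28.3% in normal c-KIT-high and 43.9% to 60.6% in normal c-KIT-low libraries. Genes with under 1 kb of exonic sequence held 11.5% to 13.8% and 1.40% to 5.46% of their gene counts. Among genes of at most 0.5 kb the median normal log2 fold change was -2.50. The part of this make-up in the normal values was not tested. The libraries of the disease states also differed in sex. *Xist*, expressed from the inactive X chromosome of females, had 0 counts in all 6 CML libraries and 2 to 1391 in the 6 normal ones, and the Y-linked *Eif2s3y* had 634 to 1132 counts in CML and 0 to 1 in normal libraries. All 6 CML libraries were alike in this, so it does not separate c-KIT-low from c-KIT-high cells, but between CML and normal it cannot be told apart from the disease.

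**Figure D4:**
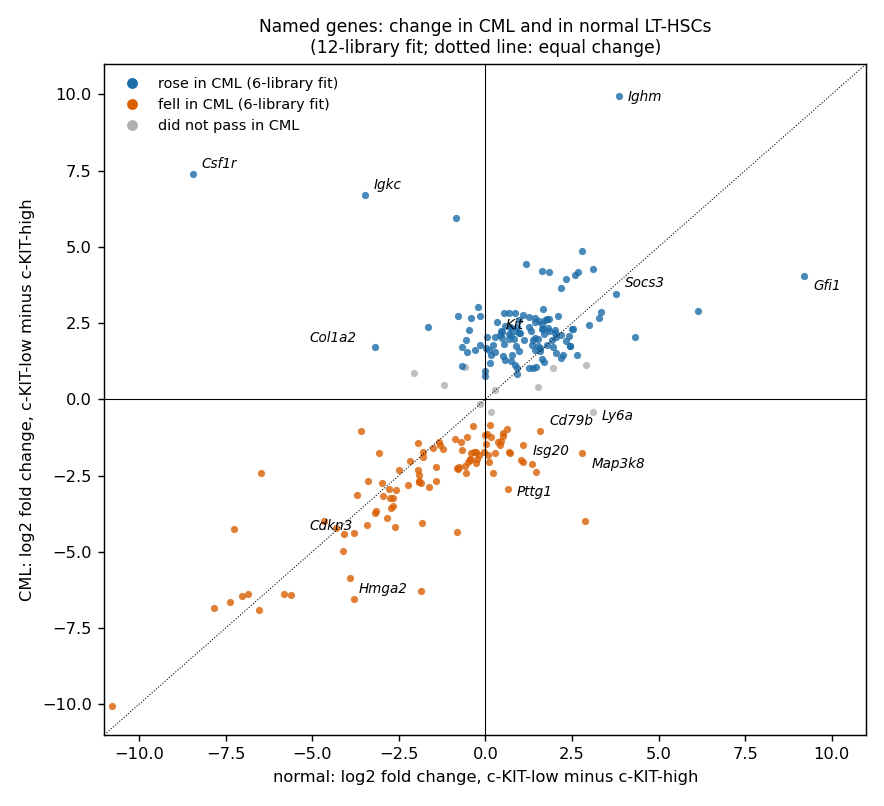
Log2 fold change of c-KIT-low minus c-KIT-high LT-HSCs in normal mice (horizontal axis) and in CML mice (vertical axis) for the named genes, each from the fit of all 12 libraries; blue and orange mark genes that rose or fell in CML in the 6-library fit, gray those that did not pass, and the dotted line is an equal change. *Socs3* (3.76 in normal and 3.45 in CML) lies near the line, though its normal groups overlapped. *Csf1r*, *Col1a2*, *Map3k8* and *Cd79b* lie in the quadrants of opposite direction, and *Ighj1* and *Iglv1* lie outside the axes.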

How the data were processed

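The authors deposited 1 table of raw counts per gene for the 12 libraries, made per the methods and the submitters' processing notes with STAR 2.5.3a on GRCm38 (Gencode M11) and HTSeq 0.9.1, for which DESeq2 1.22.2 and DRAGEN are also named. The counts do not separate strands, and reads that lay on more than 1 overlapping or antisense gene were set aside as ambiguous. The 5 summary rows (reads given to no gene) took no part in library sizes or tests and held 62.9% to 73.3% of entries in c-KIT-high and 42.7% to 44.2% in c-KIT-low libraries. Of 48795 gene identifiers, 48435 matched a symbol. In R 4.3.3, genes were filtered by filterByExpr, scaled by TMM and tested with edgeR 4.0.16 (quasi-likelihood, Benjamini-Hochberg, two-sided, adjusted p under 0.05), with limma 3.58.1 and DESeq2 1.42.0 among the alternatives, and checked on simulated counts with 200 changed genes. The 6-library fit was used because normal c-KIT-low libraries vary far more. Members, gene lists and tests were chosen with earlier results of these data known, and the lists hold genes the study names. Named genes were those the study names with the gate genes and *Bcr* and *Abl1*, the 10 largest called changes each way at a mean of 20 CPM or more without overlap, up to 4 called members of each list each way by p, and members that complete a count of 5 or fewer. Markers at 0, *Xist* and *Eif2s3y* fell outside this rule, and some genes within it are not reported here. Named genes with at least 10% of exonic length shared with another gene are uncertain where reads on the shared stretch were set aside: *Adar*, *Ankrd37*, *Atg9a*, *Bad*, *Bak1*, *Bax*, *Chaf1a*, *Csf1r*, *Ctnnb1*, *Ddit3*, *Dvl2*, *Emc1*, *Etfb*, *Fam162a*, *Gadd45a*, *Higd1a*, *Hoxa7*, *Il10rb*, *Nfkb2*, *Pim1*, *Polr2j*, *Rbl2*, *Rfc4*, *Selp* and *Smim27*.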

Additional observations from a re-analysis of the deposited data

Results flagged for a closer look

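Of the named genes, 4 moved one way in every library of the CML contrast and the opposite way in every library of the normal contrast, as 127 genes did over all genes tested. The difference itself passed the adjusted test for none of them, and the values are those of the 12-library fit. In the 6-library fit, each of the 4 lost its CML call when some single library was left out. With the length trend taken out, *Cd79b* and *Col1a2* did not pass, and the CML change of *Cd79b* turned positive. *Map3k8*, a kinase of the NF-κB and ERK pathways, had 35.1, 81.1 and 29.2 CPM in CML c-KIT-high and 15.8, 12.5 and 14.4 CPM in CML c-KIT-low libraries, and 0, 1.01 and 3.95 CPM in normal c-KIT-high and 5.24, 5.84 and 23.6 CPM in normal c-KIT-low libraries. Its log2 fold change was -1.77 in CML and 2.79 in normal LT-HSCs, a difference of -4.56 (SE 1.62, adjusted p = 0.343). *Cd79b*, of the B cell receptor, had 175, 175 and 114 CPM in CML c-KIT-high and 89.2, 71.6 and 65.5 CPM in CML c-KIT-low libraries, and 90.3, 77.8 and 82.3 CPM in normal c-KIT-high and 374, 90.4 and 283 CPM in normal c-KIT-low libraries. The normal groups of *Cd79b* lay only just apart, at 90.3 and 90.4 CPM where they came closest. The difference was -2.61 on the log2 scale (SE 0.64, adjusted p = 0.294). *Col1a2*, a collagen chain, had 8.26, 4.63 and 13.7 CPM in CML c-KIT-high and 39.4, 18.8 and 28.2 CPM in CML c-KIT-low libraries, and 65.8, 6.96 and 14.2 CPM in normal c-KIT-high and 0, 6.15 and 3.33 CPM in normal c-KIT-low libraries. It differed by 4.89 (SE 1.97, adjusted p = 0.389). *Csf1r*, the M-CSF receptor, had 0, 0.11 and 0 CPM in CML c-KIT-high and 17, 1.13 and 3.42 CPM in CML c-KIT-low libraries, and 4.48, 3.04 and 0.765 CPM in normal c-KIT-high and 0, 0 and 0 CPM in normal c-KIT-low libraries. Its fitted difference of 15.85 on the log2 scale (adjusted p = 0.294) is no measure of size, since the normal c-KIT-low libraries held 0 counts and the CML c-KIT-high libraries 1.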

How the results depend on the processing

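The counts of 2320 genes that rose and 2487 that fell became 427 and 811 with all 12 libraries in the fit, and 1403 genes rose with the length trend taken out. With 1 CML library left out at a time, 1212 to 3161 genes rose and 1189 to 3018 fell, the fewest without a c-KIT-low library. Across every other alternative run (DESeq2, limma-voom, medians of ratios, no filter, robust empirical Bayes, equal depth, a log2 fold change of 1 or more) both counts stayed within 1.5 times of the values reported, and 348 of the genes that rose and 603 of those that fell passed in all 15 alternatives that refit the model, the 6 fits without 1 library and the block included and the fold threshold left aside. The difference between the CML and the normal change was called for 0 genes by edgeR, but for 286 by DESeq2, 12 by limma-voom and 137 with no filter, and for 0 to 416 with 1 library left out, the most without normal c-KIT-low library 2 and with 1 gene without CML c-KIT-low library 3 and 5 without normal c-KIT-low library 3. The cause was not tested. With the length trend taken out, log2 fold changes turned to 0.000522 for *Nkg7*, 0.72 for *Pf4*, 0.34 for *Gp9*, 0.11 for *Cd79b*, 0.15 for *Hilpda*, 0.0946 for *Lyz2* and 1.05 for *Ly6a*. Whether replicate numbers pair the libraries is not known. Deviations of same-numbered libraries from their group means correlated at 0.05, 0.06 and -0.01. With 3 libraries per group and c-KIT-high libraries that differed much from each other, these values cannot decide it. Both c-KIT-high libraries 1 and 2 correlated best with their own number and library 3 with c-KIT-low library 2, and a fit with the replicate number as a block gave 1951 genes that rose, 1809 that fell and 0 for the difference. The mitochondrial share differed by -1.23 percentage points (-1.72 to -0.487 with 1 library left out) and the share of genes under 1 kb by -7.16 (-8.41 to -5.52). With 3 libraries per group, the exact test of either share cannot go below p = 0.1, and tests of genes with few counts are limited by the smaller depth of the c-KIT-high libraries.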
